A study of Mus musculus with 18 samples.

Results

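The 53 mitosis and G2/M genes described here are the rows of a table of 24028 mouse genes whose symbol was on a fixed list of genes that act in the G2 phase and in mitosis. This list was chosen by function, but with earlier results of these data known. Counts of its members beside shares of all genes therefore describe the list and are not an independent test. The list covers 11 roles, from mitotic kinesins to the transcription factor Foxm1, and all 53 rows were found and passed the filter on low counts that left 13602 genes for testing. The samples were 18 separate cultures of mouse C2C12 myoblasts, 3 in each of 6 groups, from which polyadenylated RNA was sequenced. A line carrying codon-altered human DUX4 and a line carrying codon-altered mouse Dux, genes of double-homeobox transcription factors, were each induced with doxycycline at 2 µg/ml for 36 h and were set against the same lines harvested at 36 h without doxycycline. A line carrying firefly luciferase, an enzyme with no role in gene regulation, was measured with and without doxycycline in the same way. All cultures were grown in medium with 10% fetal bovine serum under puromycin selection for the transgene. Each transgene was carried by 1 clonal line, so transgene, clone and line cannot be told apart. All induced cultures also differed from uninduced ones in having received doxycycline.

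Cells prepare for division in G2 and separate their chromosomes in mitosis, which begins when the kinase CDK1 is activated by cyclin B. Condensins and topoisomerase II compact and untangle the chromosomes, kinesins and microtubule binding proteins build the spindle, the kinetochore attaches chromosomes to it, and the spindle checkpoint holds anaphase back until all are attached. The anaphase-promoting complex with CDC20 then ends mitosis, and a contractile ring divides the cell. Many of these genes are transcribed late in the cell cycle through complexes of the MuvB core with B-MYB and FOXM1, which act at a promoter element called the CHR (cell cycle genes homology region) and at CCAAT boxes bound by NF-Y. In muscle, myoblasts divide until they leave the cell cycle and fuse into myotubes.

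The promoters of these genes are described first, since the genes were listed by function and not by sequence. RefSeq promoter windows of 300 bases on GRCm38.p6, 250 before the transcription start and 50 from it on, matched 43 of the 53 genes. The letters TTTGAA (the CHR, on either strand, TTCAAA on the other) were found in 31 of 43 genes (72.1%), against 20.2% of the 27025 genes in the promoter table. CCAAT (either strand, ATTGG on the other) was also found in 31 of 43 (72.1%), against 41.1% of all genes. Both motifs were present in 26 of 43 (60.5%), against 7.97% of all genes, and the motifs shared a base in 47 of 32851 windows. Among other mitotic genes TTTGAA was found in 34 of 72 (47.2%), CCAAT in 49 of 72 (68.1%) and both in 27 of 72 (37.5%). CCAAT was thus nearly as common there as in the 53 genes. Among S-phase genes TTTGAA was found in 5 of 36 (13.9%), CCAAT in 20 of 36 (55.6%) and both in 3 of 36 (8.33%). Stretches of 130 bases before the start are shown for 5 genes of the 53 with both motifs, since they let the spacing be read. They are Cdk1 at chr10:69352913-69353042 on the minus strand, Cdc20 at chr4:118437344-118437473 on the minus strand, Kif11 at chr19:37376252-37376381 on the plus strand, Top2a at chr11:99024190-99024319 on the minus strand and Ube2c at chr2:164769799-164769928 on the plus strand. Each is written 5′ to 3′ on the gene's strand and ends at the base before the start, and capitals mark every TTTGAA or CCAAT match on either strand.
Cdk1: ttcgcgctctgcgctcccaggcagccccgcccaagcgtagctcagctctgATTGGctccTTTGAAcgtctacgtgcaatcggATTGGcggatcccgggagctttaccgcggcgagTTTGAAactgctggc
Cdc20: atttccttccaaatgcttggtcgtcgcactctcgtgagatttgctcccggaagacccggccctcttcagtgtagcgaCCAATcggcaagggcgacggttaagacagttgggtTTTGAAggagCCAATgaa
Kif11: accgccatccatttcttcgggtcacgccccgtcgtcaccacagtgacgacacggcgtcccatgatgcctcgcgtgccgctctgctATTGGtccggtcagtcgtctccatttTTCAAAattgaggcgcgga
Top2a: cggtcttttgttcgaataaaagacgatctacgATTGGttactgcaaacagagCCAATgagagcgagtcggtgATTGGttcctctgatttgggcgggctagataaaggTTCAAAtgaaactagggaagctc
Ube2c: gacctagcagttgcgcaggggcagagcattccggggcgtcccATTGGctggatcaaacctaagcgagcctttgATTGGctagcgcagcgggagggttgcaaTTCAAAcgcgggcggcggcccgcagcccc

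In these stretches the TTTGAA match nearest the start began at −15 in Cdk1, −18 in Cdc20, −19 in Kif11, −23 in Top2a and −29 in Ube2c, counted from the start. A match beginning within 50 bases of the start, on either side, was present in 28 of 43 genes (65.1%). The same was true of 27 of 72 other mitotic genes (37.5%), 2 of 36 S-phase genes (5.56%) and 1546 of 27025 genes in the table (5.72%). Of 44 TTTGAA matches in the 45 windows of the 43 genes, 32 lay within 50 bases of the start, and the median distance of all was −10 bases. Only 23 of the 44 lay before the start, and matches after it cannot appear in the stretches shown. The 73 CCAAT matches had a median distance of −67 bases, and 70 of them lay before the start. Ect2 and Prc1 each have a pair of overlapping windows, so some of their sites are counted from both starts. With each site counted once, at its nearest start, there were 41 TTTGAA sites, 30 of them within 50 bases and with a median of −5 bases, and 69 CCAAT sites with a median of −67 bases. The window of Bub1 and that of Cdc25b held CCAAT and no TTTGAA, which says only that these letters were not in the window. A match is a description of the sequence and not evidence of binding.

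**Figure D1:**
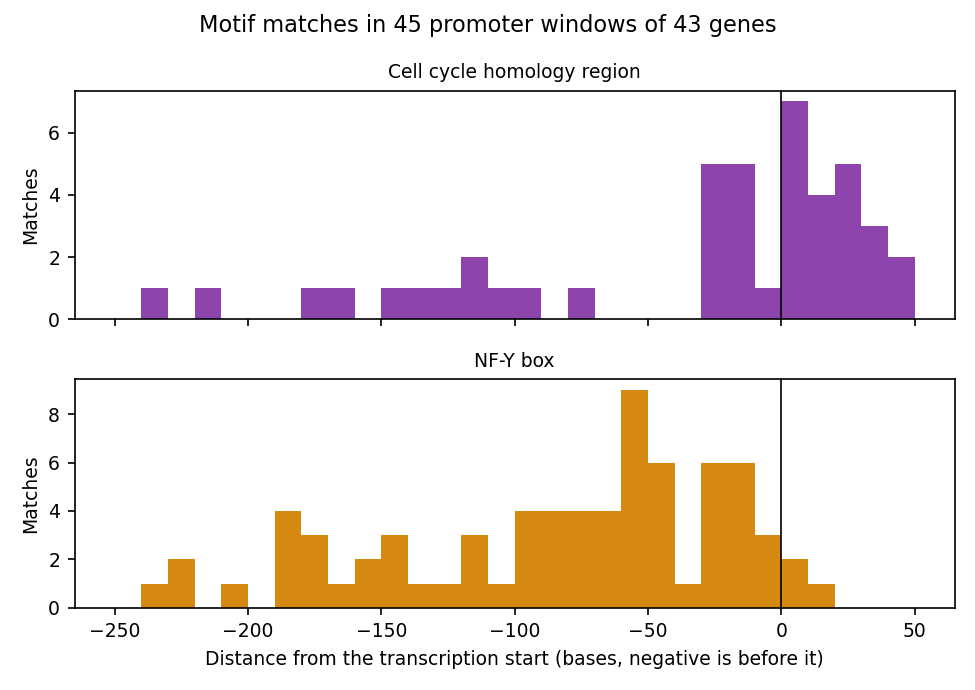
Number of TTTGAA matches (cell cycle homology region, top) and CCAAT matches (NF-Y box, bottom) per 10 bases, against the distance in bases from the transcription start, in 45 promoter windows of 43 genes. TTTGAA matches gather near the start, with 32 of 44 within 50 bases of it, while CCAAT matches lie mostly before it, with a median of −67 bases.

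The libraries held 11010586 to 17179642 counts, and the list took 0.0497% to 0.781% of them as group means. Induced Dux replicate 1 stood apart from its group, with a chi-square per degree of freedom of 33.2 and 35.6 against replicates 2 and 3, which differed from each other by 2.11. Uninduced Dux replicate 1 differed from its fellows by 5.02 and 5.1, and replicate pairs in the other groups by 1.34 to 2.74. Genes of the list whose Dux call changes without induced Dux replicate 1 are given both ways. To look at C2C12 identity, the levels of 10 myoblast markers were summed. The sum averaged 1184 ± 19.4 CPM (SD, n = 3; CPM are counts scaled to 1 library total with TMM factors) in induced DUX4 and 1154 ± 26.3 in uninduced DUX4 cultures. It averaged 1935 ± 67.6 CPM in induced Dux and 2061 ± 31.6 in uninduced Dux cultures, and 2955 ± 74.7 CPM in induced luciferase and 3720 ± 24.6 in uninduced luciferase cultures. The sum hides single markers that differed between lines (edgeR's quasi-likelihood test, adjusted p under 0.05). Of 9 tested, 8 were lower in uninduced DUX4 than in uninduced luciferase cultures, with a median log2 difference of −2.02. In uninduced Dux cultures 7 were lower and 2 higher than in uninduced luciferase cultures, from −8.68 to 6.45. Of all 13602 genes, 5028 and 4506 were lower in these comparisons. Pax7, a transcription factor of muscle stem cells, had no count in induced DUX4 cultures, Myf5, a myogenic factor, averaged 0.0438 CPM in induced Dux and 0.258 CPM in uninduced Dux cultures, and Msc, a myogenic repressor, stayed at or below 0.263 CPM in all 6 groups.

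With doxycycline all 53 genes fell in the DUX4 line, 43 fell in the Dux line and all 53 fell in the luciferase line. The summed level of the list averaged 1917 ± 66.4 CPM in induced DUX4 and 7633 ± 135 CPM in uninduced DUX4 cultures (SD, n = 3 each), a ratio of 0.251. In the Dux line it averaged 3864 ± 220 CPM in induced and 5313 ± 209 CPM in uninduced cultures, a ratio of 0.727. In the luciferase line it averaged 488.6 ± 30.2 CPM in induced and 1971 ± 68.3 CPM in uninduced cultures, a ratio of 0.248. The induced DUX4 cultures thus stood at 0.973 of the level of uninduced luciferase cultures. Within each line the induced and uninduced sums did not overlap. In bulk RNA, fewer cells in G2 or mitosis and less RNA of these genes per cell cannot be told apart.

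**Figure D2:**
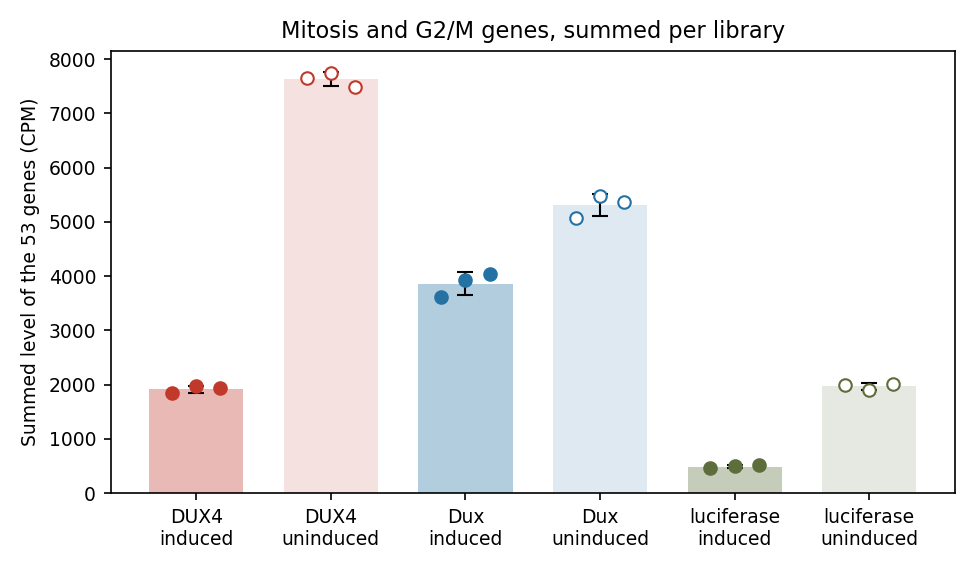
Summed CPM of the 53 genes in each of the 18 libraries (points; filled induced, open uninduced), with the group mean (bar) and SD (error bar, n = 3). Induced cultures lie below uninduced cultures of the same line in all 3 lines, and the Dux pair, at 3864 and 5313 CPM on average, is the closest together.

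Among all 13602 genes tested, 33.1% were called lower in the DUX4 line at an adjusted p under 0.05 in edgeR's quasi-likelihood test, against all 53 of the list. At least 2-fold falls were called for 50 of 53 in that line, against 10.7% of all genes. The median log2 fold change of the list was −2.32, a 5.01-fold fall, and that of all genes was 0. In the luciferase line 16.4% of all genes were called lower, against all 53 of the list, and 51 fell at least 2-fold, against 2.79% of all genes. The median of the list there was −2.49, a 5.61-fold fall. In the Dux line 34.8% of all genes were called lower, against 43 of 53 of the list. There 3 members fell at least 2-fold (Nusap1, Fam64a and Cenpf, the last only with induced Dux replicate 1 kept in). That count was no higher than the share of all genes with such falls, 7.98%. The median of the list was −0.48, a 1.39-fold fall, and that of all genes was −0.005. Scaled by library size without TMM factors, the median of all genes in the Dux line became −0.249, the median of the list −0.72, and 51 members were called lower. A TMM factor scales every gene of a library alike, so this drop of the members follows from the scaling and is no trait of the list. All induced and uninduced libraries were apart for all 53 genes in the DUX4 line and in the luciferase line (36.4% and 26.3% of all genes did so in that direction), and for 40 of 53 in the Dux line (33.5% of all genes).

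The responses of the 3 lines were then set against each other. The Dux response was higher than the DUX4 response, that is a smaller fall, for 52 of 53 genes, where 32.9% of all genes were called higher in that contrast. The median difference was 1.84 on the log2 scale, and Bub1 was the gene not called. The Dux response was also higher than the luciferase response for 52 of 53 genes, where 30.4% of all genes were called, with a median difference of 2.00, and Cdc25b was the gene not called. The contrasts of Dux with DUX4 and with luciferase share the Dux libraries. The DUX4 response was higher than the luciferase response for 20 genes and lower for 10, where 28.3% and 26.7% of all genes were called. The median of that difference was 0.16, and 23 genes were not called. Without induced luciferase replicate 1 the split was 10 higher and 14 lower, and with library size alone it was 15 higher and 13 lower. Across the 53 genes, which are not independent replicates, the log2 fold changes of DUX4 and luciferase correlated with r = 0.22 (rho 0.25), those of Dux and DUX4 with r = 0.36 (rho 0.37), and those of Dux and luciferase with r = 0.29 (rho 0.26). These pairs of responses share no library.

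**Figure D3:**
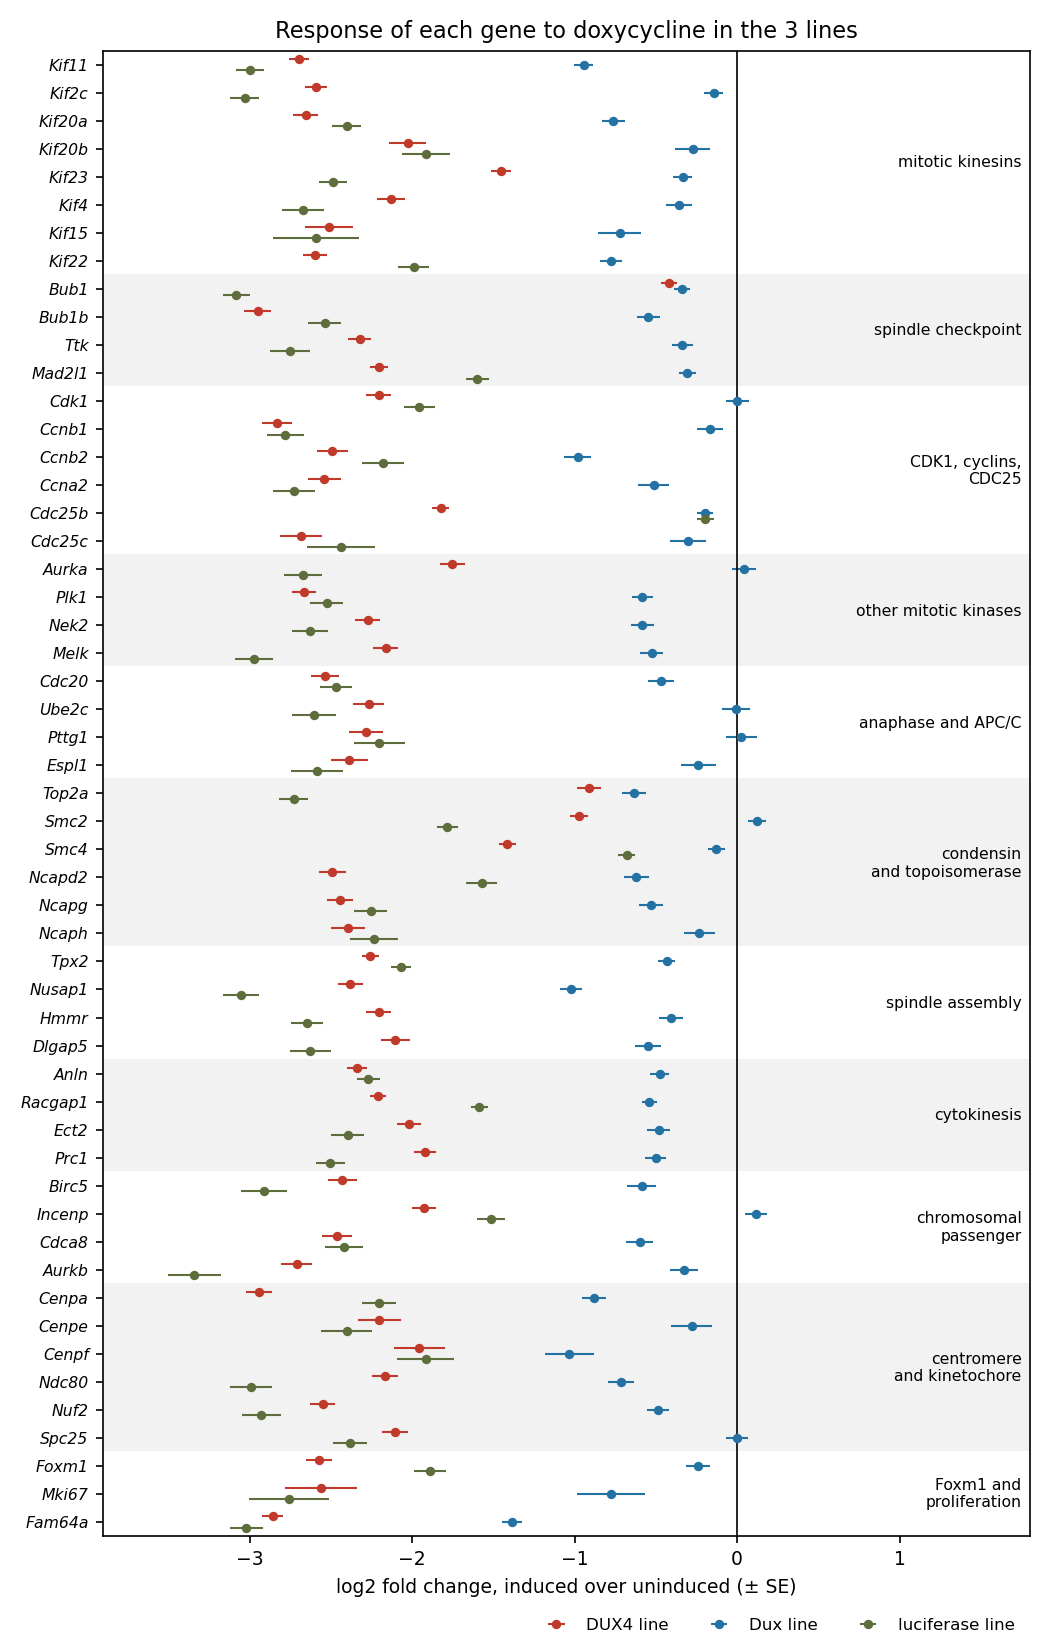
Log2 fold change (induced over uninduced, ± SE) of each of the 53 genes in the DUX4, Dux and luciferase lines, grouped by role. DUX4 and luciferase values lie mostly between −1.5 and −3, Dux values between −1.38 and 0.12, and Bub1, Top2a, Smc2, Smc4 and Cdc25b depart from their neighbours in the DUX4 or luciferase line.

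The CDK1 module starts mitosis. All 6 of its members (Cdk1, the cyclins Ccnb1, Ccnb2 and Ccna2, and the CDC25 phosphatases Cdc25b and Cdc25c, which remove inhibitory phosphates from CDK1) fell in the DUX4 line and in the luciferase line, and 4 fell in the Dux line. Ccnb1, the cyclin B1 gene (Entrez gene 268697, chromosome 13, 100778650 to 100786570, GRCm38), measured 23.4, 26.7 and 26.1 CPM in induced DUX4 cultures, against 177, 182 and 184 CPM in uninduced DUX4 cultures. Its level was 129, 99.1 and 109 CPM in induced Dux cultures, against 128, 128 and 123 CPM in uninduced Dux cultures, and 4.73, 5.87 and 6.97 CPM in induced luciferase cultures, against 39.4, 39.1 and 42.7 CPM in uninduced luciferase cultures. DUX4 and luciferase cultures with and without doxycycline were far apart, whereas induced Dux replicate 1 lay above all 3 uninduced Dux values. The log2 change was −2.83 (SE 0.0900, adjusted p = 9.37e-16) for DUX4, −0.17 (SE 0.0803, adjusted p = 0.0723) for Dux and −2.78 (SE 0.114, adjusted p = 5.25e-13) for luciferase. The difference between Dux and DUX4, 2.66 (SE 0.120), was the largest of the list. The Dux change was called with the replicate number as a block (−0.18, adjusted p = 0.0158) and without induced Dux replicate 1 (−0.29, adjusted p = 3.69e-06). It was also called with library size alone (−0.41, adjusted p = 0.000116) and with no filter on low counts (adjusted p = 0.0495).

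Cdk1 encodes the kinase itself (Entrez gene 12534, chromosome 10, 69335146 to 69352938). It measured 31.2, 33 and 30.5 CPM in induced DUX4 cultures, against 141, 151 and 145 CPM in uninduced DUX4 cultures. In the Dux line it measured 76.9, 66.98 and 61.8 CPM in induced Dux cultures, against 67.1, 69.3 and 69.2 CPM in uninduced Dux cultures, and in the luciferase line 7.03, 8.91 and 9.18 CPM in induced luciferase cultures, against 33.1, 30.3 and 34.2 CPM in uninduced luciferase cultures. Only the Dux groups overlapped. The log2 change was −2.21 (SE 0.0760, adjusted p = 3.16e-15) for DUX4, 0.00 (SE 0.073, adjusted p = 0.989) for Dux and −1.95 (SE 0.0957, adjusted p = 6.58e-12) for luciferase, and the Dux value turned to −0.24 (adjusted p = 0.00593) with library size alone. Ccnb2 and Ccna2 fell in all lines, with log2 fold changes of −2.49, −0.98 and −2.18 for Ccnb2 and −2.54, −0.51 and −2.73 for Ccna2 in the DUX4, Dux and luciferase lines.

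Cdc25b (Entrez gene 12531, chromosome 2, 131186949 to 131198497) separated the DUX4 line from the others. It measured 30.5, 31.9 and 34.1 CPM in induced DUX4 cultures, against 114, 114 and 113 CPM in uninduced DUX4 cultures. Corresponding values were 76.1, 68.4 and 72.2 CPM in induced Dux cultures, against 80.2, 83.4 and 85.1 CPM in uninduced Dux cultures, and 52.7, 52.2 and 54.4 CPM in induced luciferase cultures, against 60.8, 58.9 and 62.9 CPM in uninduced luciferase cultures. No pair of groups overlapped, but the gap was wide in the DUX4 line and narrow in the other two. The log2 change was −1.82 (SE 0.0522, adjusted p = 2.06e-16) for DUX4, −0.20 (SE 0.0495, adjusted p = 0.00153) for Dux and −0.20 (SE 0.0506, adjusted p = 0.00582) for luciferase. The DUX4 response was lower than the luciferase response, with a difference of −1.63 (SE 0.0726, adjusted p = 6e-13), the most negative difference of the list. Cdc25c fell with a log2 fold change of −2.68, −0.30 and −2.44 in the DUX4, Dux and luciferase lines, and its Dux call was lost without any of induced Dux replicate 2 or uninduced Dux replicates 2 and 3 (adjusted p between 0.0546 and 0.111) and in a fit of these groups alone (adjusted p = 0.0651).

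Of the 4 other mitotic kinases all fell with DUX4 and in the luciferase line and 3 fell with Dux. Plk1, a kinase that acts from entry into mitosis to cytokinesis (Entrez gene 18817, chromosome 7, 122159439 to 122169873), measured 14.3, 13.9 and 12.8 CPM in induced DUX4 cultures, against 87.6, 83.8 and 89.2 CPM in uninduced DUX4 cultures. It was at 39.98, 41 and 34.7 CPM in induced Dux cultures, against 56.6, 59.8 and 56.8 CPM in uninduced Dux cultures, and at 3.17, 4.32 and 3.88 CPM in induced luciferase cultures, against 22.9, 21.9 and 20.6 CPM in uninduced luciferase cultures. No groups overlapped within a line, and the Dux groups were the closest. The log2 fold changes were −2.66 (SE 0.0732, adjusted p = 1.22e-16), −0.58 (SE 0.0662, adjusted p = 2.12e-07) and −2.53 (SE 0.100, adjusted p = 3.54e-13) for DUX4, Dux and luciferase. Aurka, the aurora kinase of the centrosome and spindle poles (Entrez gene 20878, chromosome 2, 172356190 to 172370535), measured 20.1, 23.03 and 21.3 CPM in induced DUX4 cultures, against 76.5, 69.8 and 70.8 CPM in uninduced DUX4 cultures, and 44.9, 37.8 and 37.4 CPM in induced Dux cultures, against 37.6, 39.7 and 39.2 CPM in uninduced Dux cultures. Its Dux groups overlapped, with a log2 change of 0.04 (SE 0.0743, adjusted p = 0.624) that turned to −0.20 (adjusted p = 0.0181) with library size alone. In the DUX4 line Aurka fell with a log2 fold change of −1.75 (SE 0.0758), less than its change of −2.67 (SE 0.118) in the luciferase line, a difference of 0.92 (SE 0.149, adjusted p = 3.09e-05). Nek2, a centrosome kinase, and Melk, a kinase of proliferating cells, fell in all lines, with Melk at −2.16, −0.53 and −2.97 for DUX4, Dux and luciferase.

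The 8 kinesins move chromosomes and slide spindle microtubules, and all 8 fell in each of the 3 lines. Kif11, the motor that pushes spindle poles apart (Entrez gene 16551, chromosome 19, 37376403 to 37421859), measured 24.8, 26.1 and 22.9 CPM in induced DUX4 cultures, against 161, 163 and 154 CPM in uninduced DUX4 cultures. It measured 67.8, 72.98 and 75.8 CPM in induced Dux cultures, against 132, 145 and 139 CPM in uninduced Dux cultures, and 3.98, 5.10 and 4.35 CPM in induced luciferase cultures, against 36.98, 35.5 and 34.8 CPM in uninduced luciferase cultures. The groups were apart in every line. Its log2 fold changes of −2.70 (SE 0.0640), −0.94 (SE 0.0582) and −3.00 (SE 0.0861) for DUX4, Dux and luciferase made it the kinesin with the largest fall in the DUX4 and Dux lines. Kif2c, a microtubule depolymerase of the centromere, measured 49.2, 47.98 and 49.5 CPM in induced Dux cultures, against 53.1, 56.5 and 52.5 CPM in uninduced Dux cultures. That narrow difference gave −0.15 (SE 0.0601, adjusted p = 0.0385), a call lost with median-of-ratios scaling (−0.13, adjusted p = 0.059), in DESeq2 (adjusted p = 0.0567), in a fit of these groups alone (adjusted p = 0.126) and without induced or uninduced Dux replicate 2 (adjusted p = 0.0917 and 0.156), beside −2.59 (SE 0.0689) in the DUX4 line. Kif23, a motor of the central spindle in cytokinesis, had the smallest DUX4 fall of the kinesins. It measured 39.6, 44.2 and 39.6 CPM in induced DUX4 cultures, against 115, 112 and 111 CPM in uninduced DUX4 cultures, and 4.42, 5.03 and 5.54 CPM in induced luciferase cultures, against 28.04, 26.8 and 29.6 CPM in uninduced luciferase cultures. The luciferase gap was the wider, and the responses differed by 1.04 (SE 0.108, adjusted p = 1.21e-07). The chromosome arm motor Kif4, the chromokinesin Kif22 and the midzone motor Kif20a fell in the DUX4 line with log2 fold changes of −2.13, −2.60 and −2.65. Kif20b fell with a log2 fold change of −0.27 in the Dux line, a call that ended in DESeq2 (adjusted p = 0.0529), in a fit of these groups alone (adjusted p = 0.16), without induced Dux replicate 1 (−0.12, adjusted p = 0.0597) and without uninduced Dux replicate 1 or 2 (adjusted p = 0.0502 and 0.0957).

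The spindle checkpoint held the gene that departed furthest from the rest. Bub1 (Entrez gene 12235, chromosome 2, 127801122 to 127831865), a checkpoint kinase of the kinetochore, measured 71.6, 70.03 and 64.8 CPM in induced DUX4 cultures, against 94.4, 93.03 and 88.4 CPM in uninduced DUX4 cultures. It was at 59.98, 53.9 and 59.3 CPM in induced Dux cultures, against 72.2, 73.97 and 73.2 CPM in uninduced Dux cultures, and at 2.80, 2.90 and 3.04 CPM in induced luciferase cultures, against 25.2, 24.7 and 24.3 CPM in uninduced luciferase cultures. Induced DUX4 cultures thus kept most of the Bub1 level of uninduced ones, whereas induced luciferase cultures lay far below theirs. The log2 fold changes were −0.42 (SE 0.0494, adjusted p = 3.23e-07) for DUX4, −0.34 (SE 0.0507, adjusted p = 7.3e-06) for Dux and −3.08 (SE 0.0823, adjusted p = 5.36e-15) for luciferase. The DUX4 and luciferase responses differed by 2.66 (SE 0.0989, adjusted p = 4.54e-14), the largest difference of the list, and the Dux and DUX4 responses by 0.08 (SE 0.0708, adjusted p = 0.348). Bub1b, which encodes the checkpoint protein BubR1, had the largest DUX4 fall of the 53. It measured 13.9, 14.4 and 15.7 CPM in induced DUX4 cultures, against 118, 115 and 108 CPM in uninduced DUX4 cultures, and 79.2, 75.5 and 78.3 CPM in induced Dux cultures, against 114, 115 and 112 CPM in uninduced Dux cultures. The groups were apart in both lines, with log2 fold changes of −2.95 (SE 0.0818) and −0.55 (SE 0.0694), beside −2.54 (SE 0.102) in the luciferase line. The checkpoint genes Ttk and Mad2l1 fell in all 3 lines, with Mad2l1 at −2.21, −0.31 and −1.60 for DUX4, Dux and luciferase.

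**Figure D4:**
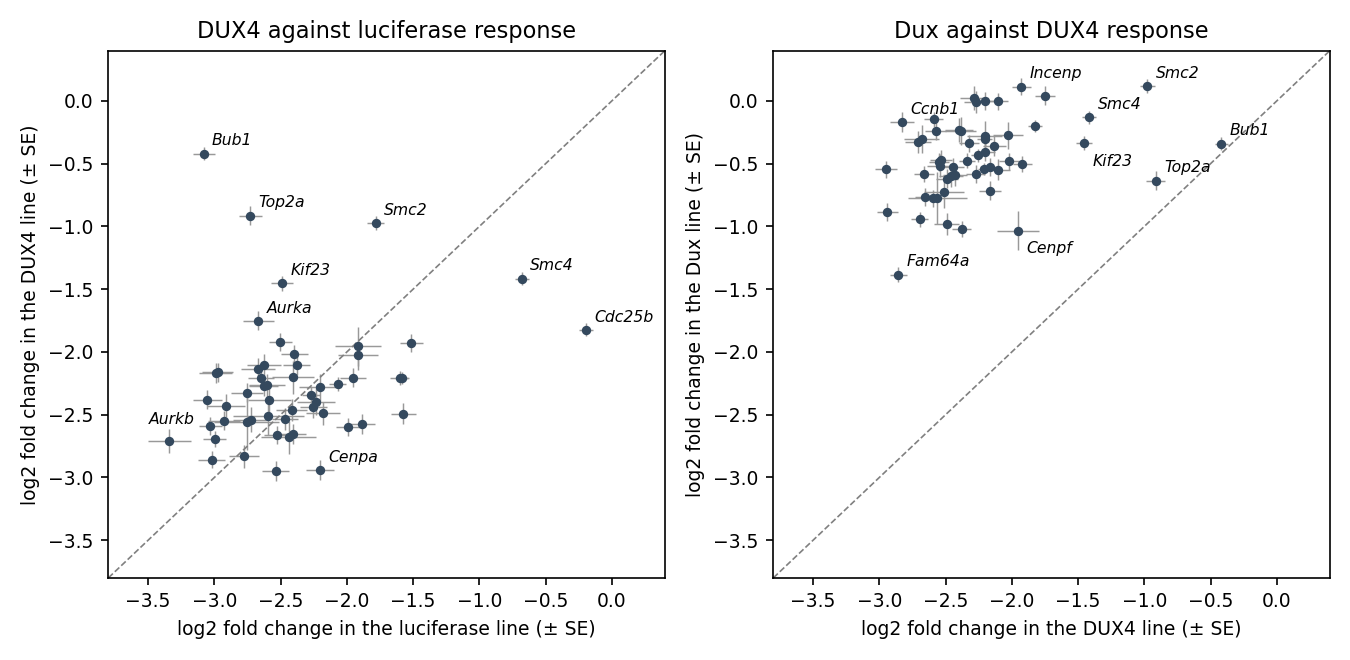
Log2 fold changes (± SE) of the 53 genes in the DUX4 line against the luciferase line (left) and in the Dux line against the DUX4 line (right), with the line of equal change dashed. On the left the points scatter on both sides of the diagonal (r = 0.22). Bub1, Top2a, Kif23 and Aurka are among those above it, and Cdc25b, Ncapd2 and Smc4 among those below it. On the right all points lie above the diagonal, with Bub1 nearest to it.

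Genes of chromosome compaction also varied among themselves. Top2a, the topoisomerase that untangles sister chromatids (Entrez gene 21973, chromosome 11, 98992943 to 99024189), measured 328, 343 and 342 CPM in induced DUX4 cultures, against 645, 635 and 629 CPM in uninduced DUX4 cultures. It measured 174, 218 and 229 CPM in induced Dux cultures, against 298, 332 and 335 CPM in uninduced Dux cultures, and 15.6, 15.6 and 17.3 CPM in induced luciferase cultures, against 108, 104 and 110.1 CPM in uninduced luciferase cultures. The groups were apart in all lines, and induced DUX4 cultures kept more of their uninduced level than induced luciferase cultures did of theirs. Log2 fold changes were −0.91 (SE 0.0730, adjusted p = 1.15e-09), −0.64 (SE 0.0737, adjusted p = 2.87e-07) and −2.73 (SE 0.0877, adjusted p = 2.16e-14) for DUX4, Dux and luciferase, and the DUX4 response exceeded the luciferase response by 1.82 (SE 0.113, adjusted p = 7.23e-11). The Dux response exceeded the DUX4 response by 0.28 (SE 0.103, adjusted p = 0.0237), a call lost with library size alone (0.075, adjusted p = 0.545), in a fit of these groups alone (adjusted p = 0.0528), and without any of induced DUX4 replicate 1, induced Dux replicates 2 and 3 or uninduced Dux replicate 1 (adjusted p between 0.052 and 0.073).

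Smc2 and Smc4 encode the ATPase pair at the core of condensin, and Ncapd2, Ncapg and Ncaph encode subunits of condensin I. Smc2 (Entrez gene 14211, chromosome 4, 52439243 to 52488260) measured 128, 129 and 126 CPM in induced DUX4 cultures, against 256, 256 and 243 CPM in uninduced DUX4 cultures. It was at 138, 147 and 159 CPM in induced Dux cultures, against 133, 137 and 139 CPM in uninduced Dux cultures, and at 20.03, 22.7 and 22 CPM in induced luciferase cultures, against 78.3, 70.1 and 74.3 CPM in uninduced luciferase cultures. In the Dux line the 2 groups overlapped, with higher values in 2 of 3 induced cultures than in any uninduced one. Its log2 fold change in the Dux line, 0.12 (SE 0.0557, adjusted p = 0.0638), was the highest of the list, and it passed the test with median-of-ratios scaling (adjusted p = 0.0422), in DESeq2 (adjusted p = 0.0369) and without induced Dux replicate 1 (0.16, adjusted p = 0.00199). Smc4 fell with a log2 fold change of −1.41 (SE 0.0525) with DUX4 and of −0.68 (SE 0.0535) in the luciferase line, a difference of −0.73 (SE 0.0744, adjusted p = 7.78e-08). Its small Dux fall of −0.13 (SE 0.0512, adjusted p = 0.0319) was lost with median-of-ratios scaling (adjusted p = 0.0541), in DESeq2 (adjusted p = 0.0508), in a fit of these groups alone (adjusted p = 0.27), without induced Dux replicate 1 (−0.07, adjusted p = 0.074) and without uninduced Dux replicate 1 or 3 (adjusted p = 0.0615 and 0.0757), and was −0.20 without induced Dux replicate 3. The 3 condensin I subunits fell further than their SMC partners in the DUX4 line. Ncapd2 measured 24.3, 28.97 and 25.3 CPM in induced DUX4 cultures, against 150.3, 144 and 148 CPM in uninduced DUX4 cultures, and 12.9, 14.2 and 14.7 CPM in induced luciferase cultures, against 40.3, 44.4 and 39.6 CPM in uninduced luciferase cultures. The DUX4 gap was the wider, with log2 fold changes of −2.49 (SE 0.0840) and −1.57 (SE 0.0937) and a difference of −0.92 (SE 0.127, adjusted p = 4.56e-06). Ncaph measured 40.4, 39.6 and 40.7 CPM in induced Dux cultures, against 40.2, 50.9 and 50.02 CPM in uninduced Dux cultures, groups that overlapped, with a log2 change of −0.23 (SE 0.0939, adjusted p = 0.0347) that was lost without any of induced Dux replicate 2 or uninduced Dux replicates 2 and 3 (adjusted p between 0.0719 and 0.158) and in a fit of these groups alone (adjusted p = 0.0952).

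Of the 4 genes of anaphase 1 fell with Dux, and all 4 fell in both other lines. Cdc20, the activator of the anaphase-promoting complex (Entrez gene 107995, chromosome 4, 118432901 to 118437352), measured 28.5, 33.1 and 30.8 CPM in induced DUX4 cultures, against 176, 178 and 182 CPM in uninduced DUX4 cultures. It was at 105, 80.7 and 83.1 CPM in induced Dux cultures, against 125, 125 and 123 CPM in uninduced Dux cultures, and at 9.89, 12.4 and 11.2 CPM in induced luciferase cultures, against 62.95, 61.3 and 60.6 CPM in uninduced luciferase cultures. Groups were apart in all lines, and log2 fold changes were −2.54 (SE 0.0847, adjusted p = 1.99e-15), −0.47 (SE 0.0781, adjusted p = 2.74e-05) and −2.47 (SE 0.0967, adjusted p = 3.07e-13) for DUX4, Dux and luciferase. Ube2c, the ubiquitin-conjugating enzyme of that complex, measured 59.6, 44.6 and 45.9 CPM in induced Dux cultures, against 54.6, 49.1 and 47.98 CPM in uninduced Dux cultures. Pttg1, which encodes securin, the inhibitor of separase, measured 48.99, 36.6 and 38.97 CPM in induced Dux cultures, against 41.4, 42 and 39.3 CPM in uninduced Dux cultures. Both overlapped between the Dux groups, with log2 fold changes of −0.01 (SE 0.0859) for Ube2c and 0.02 (SE 0.0959) for Pttg1, and in each the highest induced value was that of replicate 1. With library size alone they were −0.25 (adjusted p = 0.0124) and −0.22 (adjusted p = 0.045), and without induced Dux replicate 1 Ube2c was at −0.17 (adjusted p = 0.017). In the DUX4 line Ube2c and Pttg1 fell with a log2 fold change of −2.27 (SE 0.0938) and −2.28 (SE 0.106). Espl1, the separase gene, was at −0.24 (SE 0.110, adjusted p = 0.0608) in the Dux line, and with the replicate number as a block at −0.23 (adjusted p = 0.00116), a call. It was also called without any of induced Dux replicates 2 and 3 or uninduced Dux replicate 1 (adjusted p between 0.00947 and 0.0233), with library size alone (−0.48, adjusted p = 0.00065) and with no filter on low counts (adjusted p = 0.0342). It was at −0.10 (adjusted p = 0.191) without induced Dux replicate 1.

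Spindle assembly genes all fell in each line. Tpx2, which activates aurora A on spindle microtubules (Entrez gene 72119, chromosome 2, 152847964 to 152895321), measured 40.8, 43.2 and 42.9 CPM in induced DUX4 cultures, against 201, 206 and 199 CPM in uninduced DUX4 cultures, and 100, 104 and 107 CPM in induced Dux cultures, against 136, 143 and 142 CPM in uninduced Dux cultures. Both pairs of groups were apart, with log2 fold changes of −2.26 (SE 0.0547) and −0.43 (SE 0.0515). Nusap1, a microtubule bundling protein, was 1 of the 3 genes with a Dux fall past 2-fold. It measured 31.04, 34.1 and 37.1 CPM in induced Dux cultures, against 70.6, 67.01 and 69.7 CPM in uninduced Dux cultures, a log2 change of −1.02 (SE 0.0671, adjusted p = 7.39e-11). Dlgap5, a microtubule stabilizer of the spindle, measured 13.9, 16.4 and 15.7 CPM in induced DUX4 cultures, against 66.8, 68.2 and 63.1 CPM in uninduced DUX4 cultures, and 34.2, 40.5 and 40.95 CPM in induced Dux cultures, against 53.1, 60.7 and 54.7 CPM in uninduced Dux cultures. Its fall was −2.10 (SE 0.0897) with DUX4, −0.55 (SE 0.0816) with Dux and −2.63 (SE 0.127) in the luciferase line, and the microtubule binding gene Hmmr changed by −2.20, −0.41 and −2.65 in the same lines.

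The 4 cytokinesis genes fell in all 3 lines within a narrow range of Dux responses, −0.54 to −0.48. Anln, the anillin scaffold of the contractile ring (Entrez gene 68743, chromosome 9, 22332012 to 22389188), measured 81.3, 85.8 and 90.6 CPM in induced DUX4 cultures, against 438, 438 and 429 CPM in uninduced DUX4 cultures. It measured 208, 226 and 232 CPM in induced Dux cultures, against 304, 319 and 302 CPM in uninduced Dux cultures, and 17.9, 16.6 and 18.2 CPM in induced luciferase cultures, against 89.2, 76.7 and 88.5 CPM in uninduced luciferase cultures. Groups were apart in every line, with log2 fold changes of −2.34 (SE 0.0616), −0.48 (SE 0.0583) and −2.27 (SE 0.0692) for DUX4, Dux and luciferase. Prc1, which bundles the central spindle, had the smallest DUX4 fall of this role at −1.92 (SE 0.0689), with 42.2, 45.3 and 47.9 CPM in induced DUX4 cultures against 168, 178 and 167 CPM in uninduced ones. Racgap1 and Ect2, partners in activating RhoA at the division plane, changed by −2.21 and −2.02 with DUX4 and by −1.59 and −2.40 in the luciferase line, and their DUX4 minus luciferase differences were −0.62 (SE 0.0691) and 0.38 (SE 0.129). The Ect2 difference was 0.22 (adjusted p = 0.12) without induced luciferase replicate 1 and 0.30 (adjusted p = 0.0552) without uninduced luciferase replicate 3.

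The chromosomal passenger complex corrects wrong attachments at the centromere and then moves to the midzone. Aurkb, its kinase (Entrez gene 20877, chromosome 11, 69045647 to 69051664), measured 9.11, 11.9 and 10.04 CPM in induced DUX4 cultures, against 68.3, 66.1 and 69.6 CPM in uninduced DUX4 cultures. It was at 37.1, 33.6 and 34.1 CPM in induced Dux cultures, against 39.3, 43.4 and 48.6 CPM in uninduced Dux cultures, and at 0.871, 1.61 and 1.61 CPM in induced luciferase cultures, against 13.3, 13.8 and 14.6 CPM in uninduced luciferase cultures. The groups were apart in each line, and induced luciferase cultures held the lowest values. Its fall in the luciferase line, −3.34 (SE 0.165, adjusted p = 7.3e-12), was the largest of the list in that line, beside −2.71 (SE 0.0964, adjusted p = 5.02e-15) with DUX4 and −0.33 (SE 0.0851, adjusted p = 0.00216) with Dux. Incenp, the scaffold of the complex, measured 24.4, 28.97 and 26.2 CPM in induced DUX4 cultures, against 99.03, 102 and 102 CPM in uninduced DUX4 cultures, and 86.8, 100.5 and 93.6 CPM in induced Dux cultures, against 78.95, 88.5 and 91.6 CPM in uninduced Dux cultures. The DUX4 groups were apart and the Dux groups overlapped. Incenp fell with a log2 fold change of −1.93 (SE 0.0730) with DUX4 and was at 0.11 (SE 0.0666, adjusted p = 0.137) in the Dux line, where it was called higher with the replicate number as a block (0.12, adjusted p = 0.0411) and without induced Dux replicate 1 (0.15, adjusted p = 0.0142). Birc5 (survivin) and Cdca8 (borealin) fell in all lines, with log2 fold changes of −2.43 and −2.46 with DUX4 and −0.59 and −0.60 with Dux.

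At the centromere and kinetochore all 6 genes fell with DUX4 and in the luciferase line and 4 of 6 with Dux. Cenpa, the histone H3 variant that marks centromeres (Entrez gene 12615, chromosome 5, 30666777 to 30674830), measured 9.11, 9.97 and 10.2 CPM in induced DUX4 cultures, against 73.2, 77.9 and 73.9 CPM in uninduced DUX4 cultures, and 29.2, 22.7 and 24.2 CPM in induced Dux cultures, against 47.6, 45.1 and 48.05 CPM in uninduced Dux cultures. Groups were apart in both lines, with log2 fold changes of −2.94 (SE 0.0791, adjusted p = 9.05e-17) and −0.88 (SE 0.0717, adjusted p = 1.85e-09), and the luciferase fall of −2.20 (SE 0.105) was smaller than the DUX4 fall, a difference of −0.74 (SE 0.142, adjusted p = 0.000201). Cenpf, a large kinetochore and nuclear matrix protein, measured 52.7, 100.2 and 104 CPM in induced Dux cultures, against 162, 185 and 177 CPM in uninduced Dux cultures. Its induced replicate 1 was low, and the Dux fall of −1.03 (SE 0.152) became −0.79 without it. Cenpe, a kinetochore motor, was also low in that library, at 65.04, 101 and 105 CPM in induced Dux cultures, against 101, 114 and 113 CPM in uninduced Dux cultures. It was at −0.28 (SE 0.124, adjusted p = 0.0525), was called with the replicate number as a block (−0.29, adjusted p = 0.00809), and was at −0.11 (adjusted p = 0.101) without that library. Without any of induced Dux replicates 2 and 3 or uninduced Dux replicate 1 it was called (adjusted p between 0.00697 and 0.0426). The same held with library size alone (−0.52, adjusted p = 0.00091) and with no filter on low counts (adjusted p = 0.0247). Spc25, a subunit of the NDC80 complex, measured 10.1, 10.03 and 11.6 CPM in induced DUX4 cultures, against 47.8, 43.2 and 45.5 CPM in uninduced DUX4 cultures, and 40.6, 36.3 and 36.5 CPM in induced Dux cultures, against 40.4, 36.9 and 36.6 CPM in uninduced Dux cultures. It fell with a log2 fold change of −2.11 (SE 0.0776) with DUX4 and was at −0.00 (SE 0.0674, adjusted p = 0.995) in the Dux line, but was called lower with library size alone (−0.25, adjusted p = 0.00285). Its partners Ndc80 and Nuf2 fell there with log2 fold changes of −0.72 and −0.49.

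Foxm1, Mki67 and Fam64a fell in all 3 lines. Foxm1, the transcription factor of late cell cycle genes (Entrez gene 14235, chromosome 6, 128362967 to 128376146), measured 27.3, 32.6 and 28.1 CPM in induced DUX4 cultures, against 169, 183 and 172 CPM in uninduced DUX4 cultures. It was at 78.7, 92.2 and 92.5 CPM in induced Dux cultures, against 96.5, 109.9 and 104 CPM in uninduced Dux cultures, and at 8.15, 8.84 and 9.18 CPM in induced luciferase cultures, against 34.2, 29.7 and 33.1 CPM in uninduced luciferase cultures. The groups were apart in each line. Log2 fold changes were −2.57 (SE 0.0792, adjusted p = 6.13e-16), −0.24 (SE 0.0731, adjusted p = 0.00658) and −1.89 (SE 0.0977, adjusted p = 1.51e-11) for DUX4, Dux and luciferase. The Dux call was lost in a fit of these groups alone (−0.22, adjusted p = 0.0618), and the DUX4 response was lower than the luciferase response, with a difference of −0.68 (SE 0.128, adjusted p = 0.000151). Mki67, the Ki-67 marker of cycling cells (Entrez gene 17345, chromosome 7, 135689784 to 135716361), measured 66.9, 80.2 and 86.6 CPM in induced DUX4 cultures, against 484, 471 and 424 CPM in uninduced DUX4 cultures. It was at 124, 274 and 287 CPM in induced Dux cultures, against 324, 424 and 423 CPM in uninduced Dux cultures, and at 12.6, 18.7 and 20.6 CPM in induced luciferase cultures, against 122, 110.5 and 118 CPM in uninduced luciferase cultures. Induced Dux replicate 1 lay far below its 2 fellows, and the Dux fall of −0.77 (SE 0.208, adjusted p = 0.00274) became −0.49 (adjusted p = 9.76e-07) without it. The other changes were −2.56 (SE 0.222) with DUX4 and −2.75 (SE 0.246) in the luciferase line. Fam64a, a nuclear protein of dividing cells (Entrez gene 109212, chromosome 11, 72042032 to 72047370), measured 12.04, 11.2 and 11.7 CPM in induced DUX4 cultures, against 83.2, 83.3 and 86.1 CPM in uninduced DUX4 cultures. It was at 23.5, 21.2 and 20.7 CPM in induced Dux cultures, against 54.5, 58.4 and 57.9 CPM in uninduced Dux cultures, and at 2.30, 1.87 and 2.21 CPM in induced luciferase cultures, against 17.5, 15.97 and 18.6 CPM in uninduced luciferase cultures. Groups were apart in each line, and the Dux fall of −1.38 (SE 0.0613, adjusted p = 1.72e-13) was the largest of the list in that line, beside −2.86 (SE 0.0651) and −3.02 (SE 0.101) for DUX4 and luciferase.

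**Figure D5:**
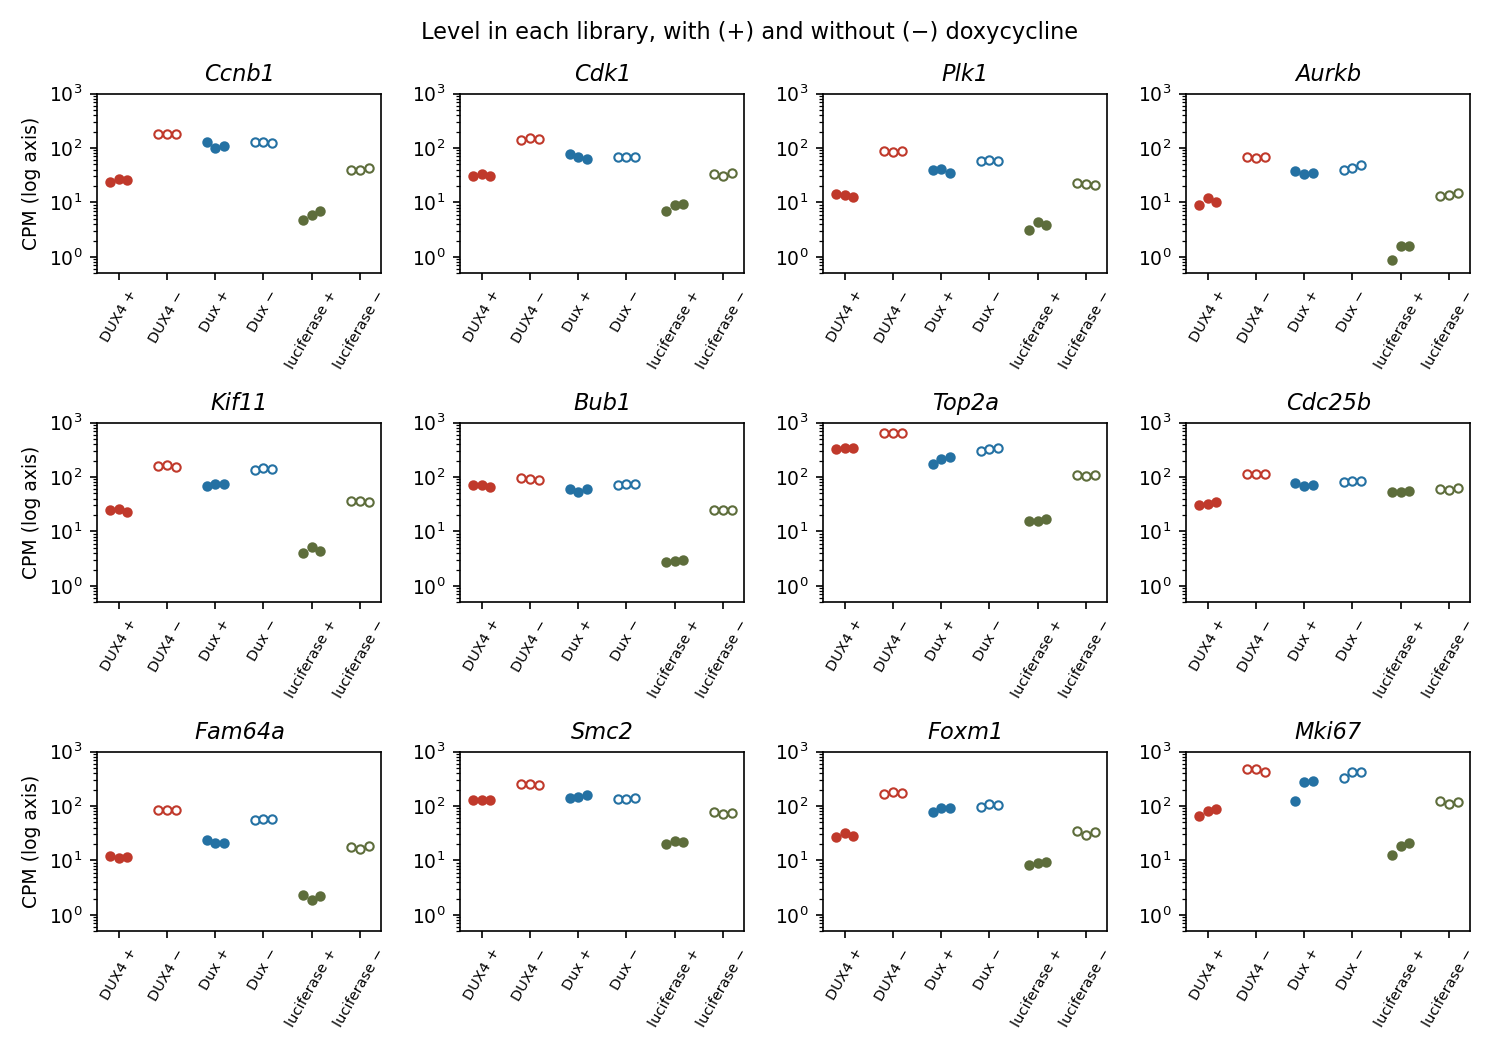
CPM on a log axis of 12 of the 53 genes in each library (filled with doxycycline, open without; 3 libraries a group). The DUX4 and luciferase pairs are far apart for most genes, the Dux pairs lie close together, Bub1 and Top2a are close together in the DUX4 line, Cdc25b is close together in the luciferase line, and Mki67 has a low value in induced Dux replicate 1.

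The lines also differed before induction. All 53 genes were higher in uninduced DUX4 cultures than in uninduced luciferase cultures, where 36% of all genes were called higher, with a median log2 difference of 1.97 and a range of 0.91 (Cdc25b) to 2.69 (Birc5). All 53 were also higher in uninduced Dux than in uninduced luciferase cultures, where 32.2% of all genes were called higher, with a median of 1.49 and a range of 0.45 (Cdc25b) to 2.40 (Kif15). Libraries did not overlap for any of the 53 in either comparison, as for 39% and 36.3% of all genes in that direction, and both comparisons share the luciferase libraries. In uninduced Dux cultures 48 of 53 were lower than in uninduced DUX4 cultures, where 33.3% of all genes were called lower, with a median of −0.52, and 49 did not overlap, against 36% of all genes. The 5 not called were Kif15, Bub1b, Nusap1, Cenpf and Mki67 (Kif15 was called without uninduced DUX4 replicate 3, adjusted p = 0.0334), and in a fit of these groups alone Kif15, Cenpf and Mki67 were called (adjusted p = 0.0175, 0.00854 and 0.0127). The call of Ccnb2 was lost with library size alone (adjusted p = 0.127) and without any of uninduced DUX4 replicates 2 and 3 or uninduced Dux replicates 1, 2 and 3 (adjusted p between 0.0509 and 0.103). That of Dlgap5 was lost with library size alone (adjusted p = 0.0614), without uninduced DUX4 replicate 2 (adjusted p = 0.0507) and without uninduced Dux replicate 1 (adjusted p = 0.0568). Birc5 (−1.11) and Cdk1 (−1.09) were furthest below. The summed level was 3.87 times as high in uninduced DUX4 and 2.7 times as high in uninduced Dux cultures as in uninduced luciferase cultures.

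Levels per length, as CPM per kilobase of exon, ordered the genes in a similar way in the 3 lines. Cdc20 was the highest in each uninduced group, at 95.6 in DUX4, 66.6 in Dux and 33 in luciferase cultures, and Smc4 was among the 4 highest in each, at 59.1, 47.1 and 22.5. Kif15, a motor of spindle fibres, and Cdc25c were the 2 lowest in each, with Kif15 at 4.85, 4.14 and 0.785. Top2a was second in uninduced DUX4 cultures, at 70.6, and stood first in induced ones, at 37.5, where Cdc20 was at 16.5.

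Muscle markers also differed between the lines and with doxycycline. The 20 myotube markers, among them Myog and the sarcomere genes Myh3 and Ttn, summed to 27.7 ± 2.24 CPM in induced and 44.9 ± 1.8 CPM in uninduced DUX4 cultures, and to 38 ± 0.869 CPM in induced and 123.2 ± 1.29 CPM in uninduced Dux cultures. In luciferase cultures they summed to 1223 ± 66.1 CPM with doxycycline and 2228 ± 67.5 CPM without it. All 20 were lower in uninduced DUX4 and in uninduced Dux than in uninduced luciferase cultures. Of all 13602 genes tested, 5028 and 4506 were called lower in these comparisons. With doxycycline 17 of 20 fell in the luciferase line, alongside the 53 mitotic genes. Of the 20, 7 fell and 4 rose with DUX4, 13 fell and 1 rose with Dux, and 1 rose in the luciferase line. The shares of all genes called lower were 33.1%, 34.8% and 16.4% for DUX4, Dux and luciferase. Those called higher were 34.4%, 34.1% and 14.7%. The DUX4 falls of the 20 markers thus lay near the share of all genes. Without induced Dux replicate 1, 10 fell with Dux, and in a fit of these groups alone, where 11 of the 20 passed the filter on low counts, 9 fell. Mef2c, the gene that rose with Dux and in the luciferase line, had 10, 14 and 10 counts in induced Dux cultures and none in uninduced ones. Another of the 20 had the highest DUX4 log2 change of these markers, 7.46. Mef2c was also called with DUX4, at 3.57, on 1, 2 and 1 counts in induced cultures against none. That call was lost in DESeq2 (adjusted p = 0.0557), with the replicate block and without any of induced DUX4 replicate 2 or uninduced DUX4 replicates 1, 2 and 3 (adjusted p between 0.0567 and 0.0813). Its luciferase value of 0.23 was uncalled in DESeq2 (adjusted p = 0.0835), with the replicate block (adjusted p = 0.066) and without any 1 luciferase library other than induced replicate 2 (adjusted p between 0.05 and 0.131). Of the 9 myoblast markers tested, 6 fell and 2 rose with DUX4, 7 fell and 2 rose with Dux, and 7 fell and 1 rose in the luciferase line. Of 6 fibroblast and adipocyte markers tested, 3 rose and 1 fell with DUX4, 3 rose and 2 fell with Dux, and 4 rose in the luciferase line. The same shares of all genes apply to these short lists. Defining markers were at 0 in some groups, with Mef2c and Actn2 uncounted in uninduced DUX4 cultures, Mef2c in uninduced Dux and Actn2 in induced Dux cultures. Myog, the differentiation factor, measured 124, 117 and 113 CPM in induced luciferase cultures, against 201, 191 and 191 CPM in uninduced luciferase cultures, and fell with a log2 change of −0.72 (SE 0.0829, adjusted p = 1.29e-06). It was at 0.348, 0.462 and 0.469 CPM in induced DUX4 and 0.876, 1.48 and 1.36 CPM in uninduced DUX4 cultures. Myod1, the myoblast determination factor, fell with a log2 fold change of −2.84, −0.48 and −0.38 in the DUX4, Dux and luciferase lines. The 10 fibroblast and adipocyte markers summed to 158 ± 4.13 CPM in induced and 43.4 ± 0.88 CPM in uninduced DUX4 cultures. They summed to 136.2 ± 8.47 CPM in induced and 54.7 ± 1.03 CPM in uninduced Dux cultures, and to 735 ± 8.02 CPM in induced and 549.9 ± 15.9 CPM in uninduced luciferase cultures. Adipoq, the adipocyte hormone gene, had no count in 5 of the 6 groups. The part of these markers in the differences of the mitotic genes was not tested.

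A further list of mitotic genes held both falls and rises. Of its 84 genes, 78 were lower and 3 higher with DUX4, 44 lower and 19 higher with Dux, and 76 lower and 1 higher in the luciferase line. Medians of this list were −1.94, −0.22 and −1.71. The shares of all genes called lower were 33.1%, 34.8% and 16.4% for DUX4, Dux and luciferase, and those called higher were 34.4%, 34.1% and 14.7%. The 3 that rose with DUX4 were Mad1l1, a checkpoint adaptor, at 1.56 (SE 0.0520, adjusted p = 1.93e-15), Zwint, a kinetochore protein, at 0.86 (SE 0.0508), and Kif2a, a microtubule depolymerase, at 0.29 (SE 0.0527). The largest rises with Dux were those of Gas2l3, a cytoskeletal linker of the midbody, at 1.99 (SE 0.0684), the nuclear import gene Kpna2 at 1.14 (SE 0.0521) and Fam83d, a spindle protein, at 1.11 (SE 0.0741). All 3 fell with DUX4 and in the luciferase line. The largest falls were Cenpm, Sapcd2 and Depdc1b with DUX4 (−3.18, −3.07 and −3.05), and Ska1, Pbk and Depdc1a in the luciferase line (−3.18, −3.15 and −3.01). With Dux they were Cenpp, Parpbp and Ska2 (−1.75, −1.25 and −1.04), and Psrc1 was the 1 gene that rose in the luciferase line (0.25), a call lost without induced luciferase replicate 3 (adjusted p = 0.0568) or uninduced luciferase replicate 1 (adjusted p = 0.0845). With Dux, library size alone gave 60 of the 84 lower and 12 higher, with a median of −0.46. A fit of these groups alone gave 27 lower and 17 higher, with a median of −0.20. Leaving out 1 Dux library gave 34 to 42 lower and 17 to 20 higher.

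S-phase genes, which replicate DNA before G2, were lower in 43 and higher in 1 of 45 with DUX4 and lower in 41 in the luciferase line, with medians of −1.56 and −0.94. With Dux 11 were lower and 14 higher, with a median of 0.045, which turned to 23 lower and 9 higher, with a median of −0.20, with library size alone. A fit of these groups alone gave 6 lower and 14 higher, and leaving out induced Dux replicate 1 gave 15 lower and 17 higher. Among all genes, 34.8% were called lower and 34.1% higher with Dux, 33.1% lower and 34.4% higher with DUX4, and 16.4% lower in the luciferase line. The median of the 53 mitotic genes in the same line was −0.48 with TMM and −0.72 with library size alone, and that of S-phase genes was −0.007 without uninduced Dux replicate 1 and −0.002 without induced Dux replicate 2. Pcna, the sliding clamp of replication, rose by 0.84 (SE 0.0783) with DUX4 and by 1.18 (SE 0.0801) with Dux, and fell with a log2 fold change of −0.63 in the luciferase line. Orc1 and Ccne2, of the origin complex and the cyclin E pair, rose by 1.13 and 1.00 with Dux, while the helicase gene Mcm6 fell with a log2 fold change of −0.68. The other large falls were those of Ung, a repair glycosylase gene, and Gins1, a helicase subunit gene, with DUX4 (−2.94 and −2.77), of Mcm10 and Mcm5 in the luciferase line (−2.96 and −2.82), and of Gins3 and the clamp loader gene Rfc5 with Dux (−0.60 and −0.40). The loading factor gene Cdc6 fell most of this list in the DUX4 and luciferase lines, with log2 fold changes of −3.11 with DUX4 and −3.34 in the luciferase line.

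Of 34 regulators of G2 and of late cell cycle transcription, 24 were lower and 7 higher with DUX4, 13 lower and 9 higher with Dux (18 lower and 8 higher with library size alone, 15 lower and 9 higher without induced Dux replicate 1), and 14 lower and 4 higher in the luciferase line. Among all genes 33.1%, 34.8% and 16.4% were called lower for DUX4, Dux and luciferase, and 34.4%, 34.1% and 14.7% higher. The Dux counts thus lay near the shares of all genes. Cdkn1a, the CDK inhibitor p21 (Entrez gene 12575, chromosome 17, 29090976 to 29100727), measured 879.8, 823 and 839 CPM in induced DUX4 cultures, against 134, 128 and 132 CPM in uninduced DUX4 cultures. It was at 92.4, 92.1 and 84.1 CPM in induced Dux cultures, against 254, 248 and 244 CPM in uninduced Dux cultures, and at 513, 474 and 479 CPM in induced luciferase cultures, against 474, 464 and 484 CPM in uninduced luciferase cultures. Induced DUX4 values lay far above uninduced ones, induced Dux values below, and the luciferase groups overlapped. Its log2 change was 2.69 (SE 0.0503, adjusted p = 7.38e-19) for DUX4, −1.47 (SE 0.0496, adjusted p = 2.59e-15) for Dux and 0.04 (SE 0.0469, adjusted p = 0.53) for luciferase. A part of Cdkn1a in the responses of the 53 genes was not tested. Mybl2, the B-MYB subunit that joins the MuvB core (Entrez gene 17865, chromosome 2, 163054687 to 163084688), measured 6.54, 7.33 and 5.69 CPM in induced DUX4 cultures, against 39.6, 40.7 and 39.8 CPM in uninduced DUX4 cultures. It was at 22.03, 24.6 and 22.3 CPM in induced Dux cultures, against 14.6, 16.8 and 17.5 CPM in uninduced Dux cultures, and at 0.871, 0.904 and 0.775 CPM in induced luciferase cultures, against 5.31, 3.84 and 4.21 CPM in uninduced luciferase cultures. All groups were apart, lower after induction in the DUX4 and luciferase lines and higher in the Dux line, with −2.62 (SE 0.0950, adjusted p = 6.68e-15), 0.49 (SE 0.0875, adjusted p = 6.53e-05) and −2.39 (SE 0.196, adjusted p = 1.36e-08) for DUX4, Dux and luciferase.

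Among the other regulators, the retinoblastoma gene Rb1 rose by 2.44 (SE 0.0770) and the p53 target Ccng1 by 1.29 (SE 0.0442) with DUX4. Both stayed uncalled in the luciferase line, at −0.16 and 0.08. The E2F genes E2f2 and E2f7 and the CDK1 inhibitory kinase gene Wee1 fell with DUX4, with log2 fold changes of −3.30, −2.83 and −2.60. E2f7 and Pkmyt1, a second inhibitory kinase of CDK1, fell in the luciferase line with log2 fold changes of −2.48 and −1.77 and were uncalled with Dux, at 0.05 and 0.03. The MuvB subunit genes Lin9 and Lin54 fell with DUX4, with log2 fold changes of −1.72 and −1.26, and were uncalled with Dux. Nfya, a subunit of the CCAAT-binding factor, rose in all 3 lines, by 1.18, 0.92 and 0.27 for DUX4, Dux and luciferase. With Dux the antiproliferative gene Btg2 and the phosphatase gene Cdc25a rose, by 1.38 and 0.62, and the checkpoint kinase gene Chek2 and the stress gene Gadd45a fell, with log2 fold changes of −1.24 and −1.08. Gadd45a rose in the luciferase line, by 0.39.

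Of the E2F factors and their partners, E2f1, E2f3 and E2f6 fell with DUX4 (−0.26, −0.77 and −0.77) and rose with Dux (0.58, 0.44 and 0.53). E2f8 and the dimerization partner gene Tfdp1 fell in all 3 lines, at −2.09, −0.34 and −1.73 for E2f8 and −1.04, −0.29 and −0.40 for Tfdp1. E2f4 and E2f5 fell with DUX4 (−0.87 and −0.42), as did Tfdp2 (−0.69), which also fell with Dux (−0.76). Among the pocket proteins, which hold E2F in check, Rbl1 fell with DUX4 (−1.29) and in the luciferase line (−0.62) and rose with Dux (0.28, but 0.04 and uncalled with library size alone), while Rbl2 fell with Dux (−0.82) and was uncalled in the other lines. The histone-binding gene Rbbp4, shared by MuvB and other complexes, fell with DUX4 (−0.51), and the MuvB subunit genes Lin37 and Lin52 were uncalled in every line. Nfyb fell with DUX4 (−0.93) and was at 0.24 in the luciferase line, a call lost in DESeq2 (adjusted p = 0.0505) and without induced luciferase replicate 3 (adjusted p = 0.116) or uninduced luciferase replicate 2 or 3 (adjusted p = 0.0544 and 0.0538). Nfyc fell in all 3 (−0.58, −0.22 and −0.31 for DUX4, Dux and luciferase), with its Dux call lost in a fit of these groups alone (adjusted p = 0.0557). The checkpoint kinase gene Chek1 fell with DUX4 and in the luciferase line (−1.88 and −1.17), as did Fzr1, which encodes the CDH1 activator of the anaphase-promoting complex (−0.48 and −0.26). Trp53, the p53 gene, fell with DUX4 and Dux (−0.62 and −0.39), and the CDK inhibitor gene Cdkn1b rose with DUX4 (0.51) and fell with Dux (−0.61). Its value of 0.17 in the luciferase line was called in the whole fit and not without any of induced luciferase replicates 1 and 2 or uninduced luciferase replicates 1 and 3 (adjusted p between 0.0546 and 0.0632).

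Responses were also set beside the promoter motif. The 28 genes with a TTTGAA match near the start had median log2 fold changes of −2.24 with DUX4, −0.49 with Dux and −2.48 in the luciferase line. The 15 genes with a window and no such match had −2.38, −0.34 and −2.76. These medians are a description of the list and were not tested.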

How the data were processed

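The deposited table held whole-number counts of reads per gene that the authors had not normalised. The submitters' processing notes name TopHat2 2.0.12, Bowtie2 2.2.3, CASAVA and the build mm10. Counting program, gene annotation and strand setting: not given in the sources used here. Per the labels' protocols, polyadenylated RNA was made into TruSeq v2 libraries. Reads from the transgenes were not analysed here. Every library of the 6 groups entered 1 model of the group means in edgeR 4.0.16 (R 4.3.3), with TMM scaling (factors 0.8964 to 1.07), the filter on low counts by group that leaves 13602 of 24028 genes (5017 had no count), and the quasi-likelihood F test, two-sided. Benjamini-Hochberg adjustment ran over all 13602 genes in each of 9 contrasts, a gene was called at an adjusted p under 0.05, and SE was the log2 fold change over the root of F. CPM used TMM-scaled library sizes, and intervals of CPM across libraries cover the spread of 3 cultures only. The fit was tried on simulated data of the DUX4 response with 13093 genes, of which 100 changed by 1 and 100 by 2 on the log2 scale. It recovered 95% and 100% of these and called 0.0776% of the unchanged genes. In the measured DUX4 response 67.6% of all genes were called. The simulation therefore does not show how the scaling and the test behave when so many genes change. The common biological coefficient of variation was 6.25%. Gene positions and exon lengths are from GENCODE vM21 on GRCm38, the build that UCSC calls mm10, and promoters are from RefSeq on GRCm38.p6. Chromosome ends and starts are 1-based.

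The members and lists were chosen with earlier results of these data known. Of the listed symbols, Sgol2 was not found in the table. Values per library were given, in each role, for the genes with the largest and smallest DUX4 fall and the largest difference between the Dux and DUX4 responses, and for Cdk1, Ccnb1, Plk1, Aurkb, Foxm1, Mki67 and Top2a. From the other lists the text gives the 3 largest falls and rises called, and Cdkn1a, Mybl2, Myod1 and Myog. It names every called G2/M regulator, but not with every response. A regulator given for 1 line may therefore also have been called in another. A few further members were shown after their values were seen, among them Smc2, Cenpf, Cenpe, Spc25 and Fam64a. In the Dux line the deviations of induced and uninduced cultures with the same replicate number correlated at 0.334, 0.175 and 0.154 over all genes tested, and those of different numbers at −0.273 to 0.162. Every same-numbered value was over 0.1, so the numbers were taken to pair the samples there, although induced replicate 2 with uninduced replicate 3 (0.162) and induced replicate 3 with uninduced replicate 2 (0.144) were about as high, and values with the replicate number as a block stand beside the results whose call they change. Alternatives were median-of-ratios scaling, library size alone, DESeq2 1.42.0, no filter on low counts, a fit of only the groups compared, the replicate block, and leaving out each library.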

Additional observations from a re-analysis of the deposited data

Results flagged for a closer look

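The contrasts of responses between lines were flagged because a test of the difference itself passed for many of the 53 genes. Between the DUX4 and luciferase lines 30 of 53 responses differed, with 20 higher and 10 lower in the DUX4 line. In that contrast 55% of all genes were called in either direction, so this count lay near the share of all genes. The split was 10 higher and 14 lower without induced luciferase replicate 1, and 15 higher and 13 lower with library size alone. Between the Dux and luciferase lines 52 differed, all higher in the Dux line, where 30.4% of all genes were called higher. Between the Dux and DUX4 lines 52 differed, all higher in the Dux line, where 32.9% of all genes were called higher. The Dux contrasts share the Dux libraries. Transgene, clone and line cannot be told apart in any of them. No explanation for these differences was tested.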

How the results depend on the processing

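The count of called members stayed within 1.5 times its main value in each of 9 comparisons under every alternative. That count takes no account of direction, and the split of DUX4 minus luciferase calls into higher and lower did change, as given above. Leaving out a library gave 53 in every case for the DUX4 response, for the luciferase response and for uninduced DUX4 or Dux against luciferase cultures. It gave 39 to 45 for the Dux response, 24 to 30 for DUX4 minus luciferase, 52 for Dux minus luciferase, 51 to 52 for Dux minus DUX4 and 46 to 48 for uninduced Dux against DUX4 cultures. For the Dux response the count was 42 with median-of-ratios scaling, 51 with library size alone, 46 with no filter, 41 in DESeq2 and 37 with only the groups compared, and with median-of-ratios scaling and in DESeq2 Smc2 was among them as higher. With library size alone, 31.6% of all genes called in the Dux response were higher, against 49.5% with TMM, and the shares were 32.2% against 50.7% for Dux minus luciferase and 38.8% against 50.4% for Dux minus DUX4. In that setting the Dux responses of Cdk1 (−0.24, adjusted p = 0.00593), Aurka (−0.20, adjusted p = 0.0181) and Pttg1 (−0.22, adjusted p = 0.045) turned below 0 and passed the test, and Cdc25b was lower in Dux minus luciferase (−0.26, adjusted p = 0.00259). The cause was not tested.

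Without induced luciferase replicate 1, the DUX4 minus luciferase calls of Kif11, Kif2c, Kif4, Ttk, Nek2, Dlgap5, Ect2, Birc5, Aurkb and Nuf2 were lost and Kif20a, Cdk1, Ccnb2 and Tpx2 were called lower. Without induced Dux replicate 1, 43 genes were lower and Smc2 and Incenp higher with Dux. The replicate block gave 47 called genes in the Dux response, 46 lower and Incenp higher, and 53 in the DUX4 and luciferase responses. In the DUX4 minus luciferase contrast it gave 29, with Nuf2 lost. In the DUX4 and luciferase lines same-numbered samples correlated at −0.035 to 0.041, so there the samples share only a number. Depth was 11010586 counts or more per library, and all 53 genes were counted in each group.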
